A study of Mus musculus with 16 samples.

Results

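The replication-dependent histone genes encode the H2A, H2B, H3 and H4 proteins that wrap newly made DNA into nucleosomes. They were taken as every protein-coding gene whose symbol is H2ac, H2bc, H3c or H4c followed by digits alone, which gave 61 of the 56941 genes in the deposited tables. Of these, 18 encode H2A, 18 encode H2B, 12 encode H3 and 13 encode H4. On GRCm39, 48 of them lie on chromosome 13, 10 on chromosome 3, 2 on chromosome 11 and 1 on chromosome 6.

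These genes are transcribed mainly in S phase, when a cell copies its genome, and have no introns in their classical form. Their classical messenger RNA is the only one in animal cells that is not polyadenylated. It ends a few bases after a conserved stem-loop, which is bound by SLBP and cut with the help of the U7 snRNP. Some members also give longer transcripts that run past the stem-loop to an ordinary poly(A) signal, above all in cells that have stopped dividing.

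RNA was sequenced in bulk from both compartments of a coculture across inserts, and poly(A)-selecting library chemistry (TruSeq Stranded mRNA) was used. The PSC groups were the mPSC1 line, immortalized murine pancreatic stellate cells, grown alone (PSC, n = 3 libraries) or with explants of superior cervical ganglia (PSC+SCG, n = 3). The nerve groups were those explants, sympathetic ganglia of C57BL/6J pups taken at postnatal day 1 to 4, grown alone (SCG, n = 3), with NIH 3T3 fibroblasts (SCG+MEF, n = 3) or with mPSC1 cells (SCG+PSC, n = 4). Each coculture held 8 to 13 explants and 10000 cells on the insert for about 70 hours, so that medium was shared without contact. Each cell partner was 1 established line, and no treatment or allele distinguished the groups beyond the partner. Explants hold neurons, glia, fibroblasts, macrophages and endothelial cells, and in such bulk samples fewer dividing cells cannot be told apart from less RNA per cell.

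Recovered reads on genes ranged from 31900689 to 41632381 in the 14 libraries in which they could be recovered. The labelled cells were checked against markers. The 10 sympathetic neuron genes took 0.00162% to 0.00261% of counts in the PSC and PSC+SCG libraries and 0.352% to 0.799% in the nerve libraries. Of these genes, Slc18a2, which encodes the vesicular monoamine transporter of noradrenergic neurons, was at 0 in all 6 PSC and PSC+SCG libraries. Hand2 was not absent there, at 553.7 to 995.7 counts. Glial genes took at most 0.000555% of counts in any PSC or PSC+SCG library against 0.168% to 0.234% in the nerve libraries. Fibroblast genes were abundant in both, at 1.03% to 1.93% of counts in the PSC table and 0.631% to 1.20% in the nerve table. The explants thus carried fibroblast transcripts of their own beside those of neurons and glia.

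The stem-loops of the members are shown first, since the classical transcripts end just after them. A motif of 16 letters, GG, any 3 bases, TTT, any 2 bases, A, any 3 bases and CC, was searched on the coding strand within 150 bases after the stop codon. It was found in 55 of the 61 members (90.2%) and in 65 of 21475 other protein-coding genes (0.303%). It began 22 to 59 bases after the stop codon, with a median of 32. In all 55 the 6 bases on either side of a 4-base loop pair with each other, and 6 distinct sequences were seen. The motif itself fixes the outer GG with CC and the innermost T with A, so only the pairs between these could have failed. They are given with the loop in capitals.
34 members, including H2bc4, H2ac25, H2bc27 and H3c15: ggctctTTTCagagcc
8 members, all H4 and including H4c12: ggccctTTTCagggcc
8 members, including H2bc3, H3c3 and H3c7: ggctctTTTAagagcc
H4c9 and H4c14: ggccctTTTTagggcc
H4c2 and H4c11: ggtcctTTTCaggacc
H2ac20: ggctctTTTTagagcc
The search fixed the outer GG and CC, the last T of the first arm, the TT that opens the loop and the A that follows the loop. The next T of the loop was free to vary and was seen in all 55, and the last loop base was C, A or T. The arms differed only inside the outer GG, and all 12 H4 members with a match had ggccct or ggtcct as the first arm, whereas the members of the other classes had ggctct. The motif was not found in 6 members, namely H2ac22, H2bc21, H2bc23, H2bc24, H3c8 and H4c1, which says only that these letters are not in that window.

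A poly(A) signal, AATAAA or ATTAAA, stood in the last 50 bases of an annotated transcript in 17 of the 61 members, and 13 of those also had a stem-loop. These ends are shown for the members that carry most of the counts below and for H4c14, which shares its stem-loop with H4c9, with the signal in capitals and up to 14 bases after it.
H2bc4: atatAATAAAtgtcatgtaaagca
H2bc21: tattAATAAAgttaccgattagtt
H2bc27: tattAATAAAtttggttcaatttt
H2ac25: gcccAATAAAataagagtacgtgt
H4c9: ttacATTAAAagtattctatgcta
H4c14: ataaAATAAAatcttaaaaacaac
H2bc4 is annotated at chr13:23867631-23878163 (plus strand), and its exons run 2073 bases past the stem-loop. H2ac25, at chr11:58845511-58847656 (plus strand), runs 1643 bases past it, H4c9, at chr13:22224806-22225532 (minus strand), 330 bases, and H2bc27, at chr11:58838848-58840361 (plus strand), 171 bases. H2bc21, at chr3:96128435-96131054 (plus strand), is 2620 bases long with no stem-loop match. It is counted as a member by its symbol alone, and a classical replication-dependent transcript was not shown for it. All coordinates are of GRCm39, and the gene ends are those of GENCODE M39, a later release than the one the authors counted on.

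The members were scarce in these libraries. Together they took 0.00225% to 0.00334% of all normalized counts in the 6 PSC and PSC+SCG libraries and 0.00304% to 0.00605% in the 10 nerve libraries. Of the 61, 7 were at 0 throughout the PSC table and 7 in all 9 nerve libraries of replicates 1 to 3. A count of 0 allows up to 3 reads in a library by counting error alone. Here and below, mean counts over the nerve table are those of these 9 libraries. The median of the mean normalized counts was 2.59 in the PSC table and 1.20 in the nerve table. A mean of at least 10 was reached by 8 members in the PSC table and 11 in the nerve table, and a mean of at least 100 by 3 and 4. Per kilobase of exon, the median protein-coding gene tested had 136.5 normalized counts in the PSC table and 118.9 in the nerve table, whereas the highest member, H4c9 in the PSC table, had 367.4 and most members had fewer than 10.

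**Figure D1:**
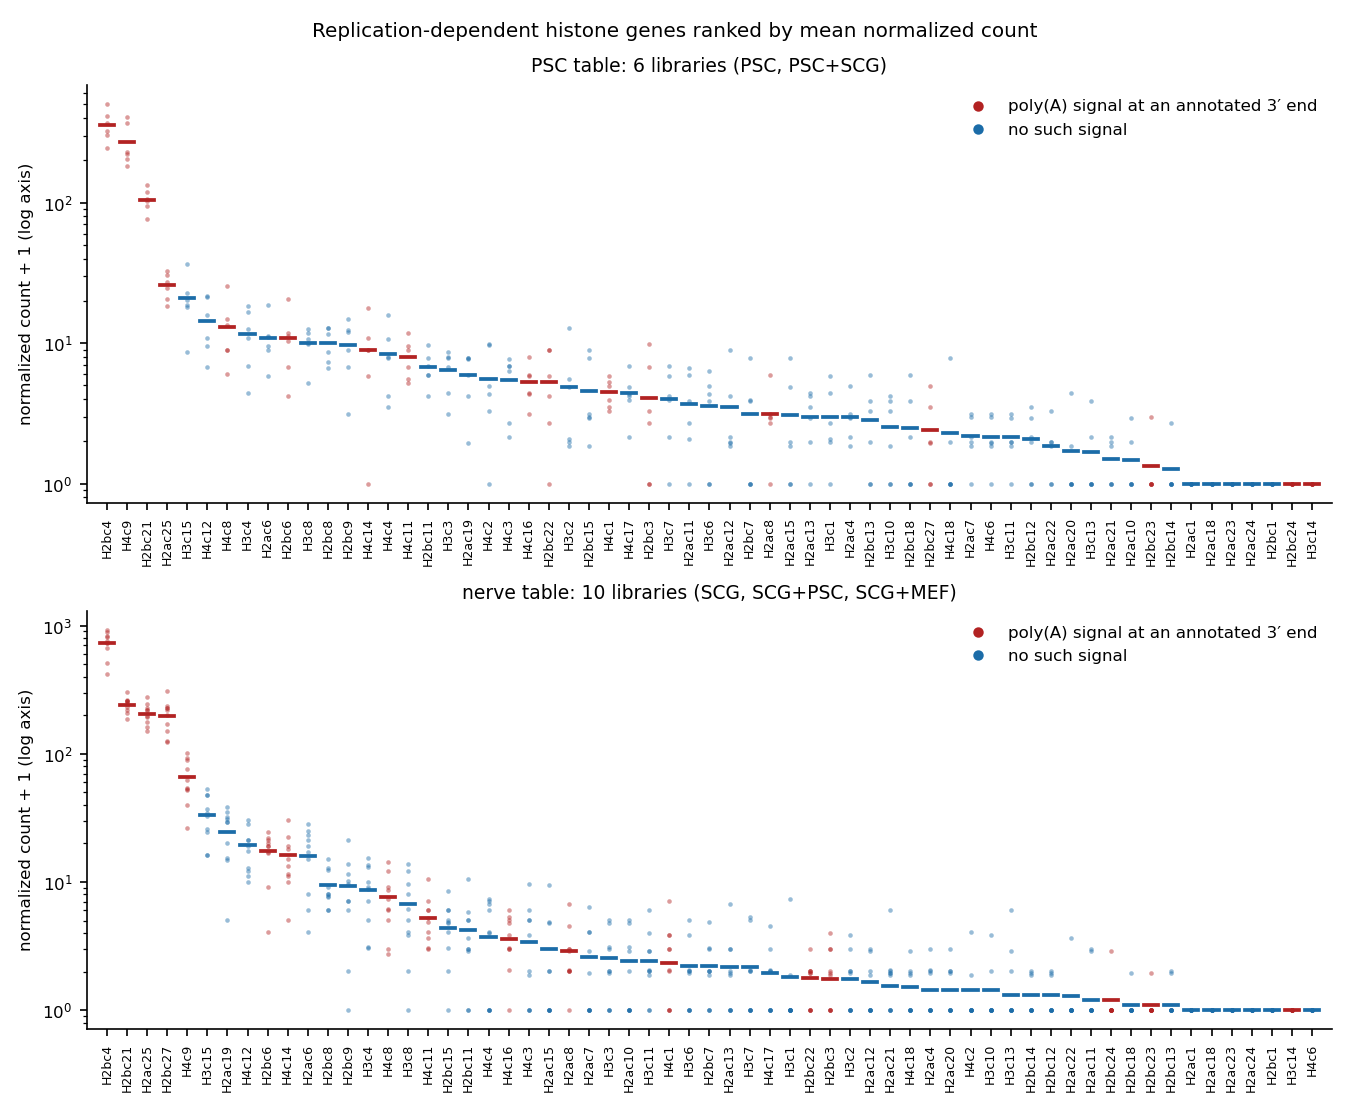
Normalized count + 1 (log axis) of all 61 members, ranked by mean, in the 6 libraries of the PSC table (top) and the 10 of the nerve table (bottom). Points are libraries, bars are means, and red marks the 17 members with a poly(A) signal at an annotated 3′ end. Means and ranks of the nerve table leave out SCG+PSC replicate 4. H2bc4 leads both tables, and red members fill 4 of the first 4 ranks in each.

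A few members held nearly all of this signal. H2bc4 alone, an H2B gene, made up 36.9% of the members' summed count in the PSC table and 44.5% in the nerve table, and the 6 highest members made up 81.3% and 89.6%. The 17 members with an annotated poly(A) signal held 83.6% of the summed mean count in the PSC table and 90.7% in the nerve table, and the other 44 held 16.4% and 9.25%. The 34 members with fewer than 100 annotated exon bases past the stem-loop did not exceed a mean of 13.3 in the PSC table or 23.7 in the nerve table. The latter is H2ac19, whose count is uncertain, since none of its 100-base windows occurred only once in the genome. Per kilobase the median of the 34 was 3.83 and 1.22, against 5.16 and 4.15 for the 21 members with 100 or more bases. The part of exon length and of repeated sequence in this contrast was not tested. The median member with a signal had 4.85 counts per kilobase in the PSC table and 2.72 in the nerve table, against 4.10 and 1.49 for those without.

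**Figure D2:**
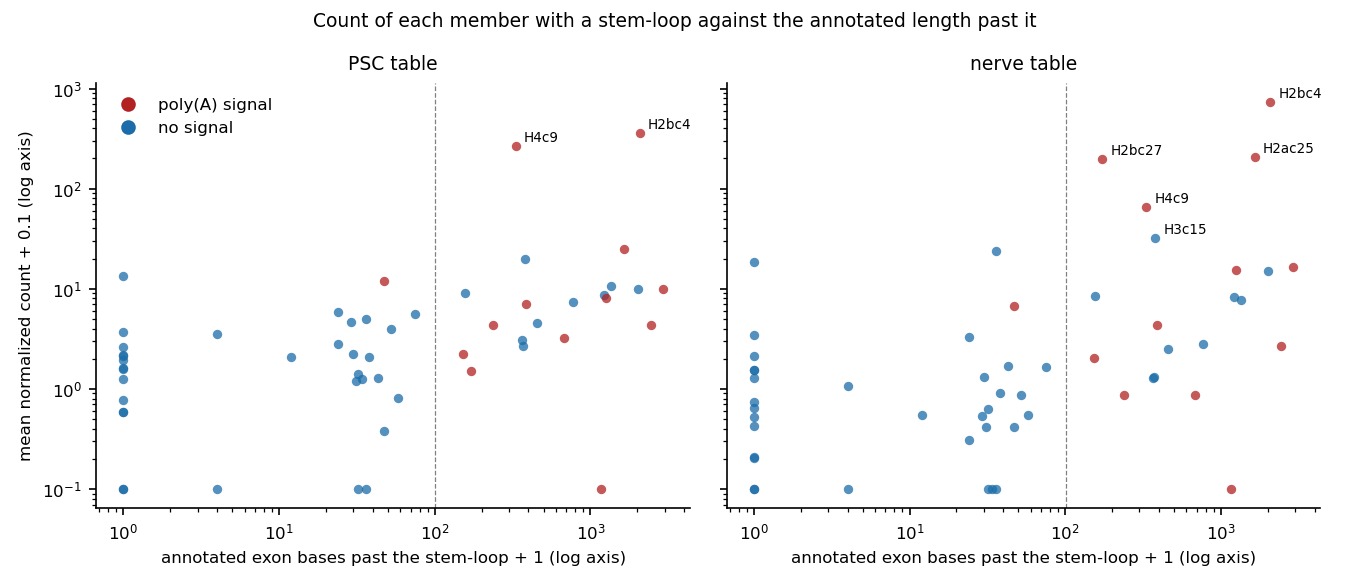
Mean normalized count + 0.1 of each of the 55 members with a stem-loop against the annotated exon bases past the stem-loop + 1, on log axes, for the PSC table (left) and the nerve table (right). Red marks a poly(A) signal, and the dashed line stands at 100 bases. All labelled members, with means of at least 30, lie to the right of that line.

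In PSCs the order was led by H2bc4, H4c9 and H2bc21. H2bc4 read 301.0, 409.8 and 241.8 normalized counts in PSC replicates 1 to 3 and 365.8, 506.2 and 322.3 in PSC+SCG replicates 1 to 3. H4c9, an H4 gene, read 180.1, 221.4 and 367.0 in PSC and 201.7, 227.0 and 405.3 in PSC+SCG. Replicate 3 was the highest for H4c9 and the lowest for H2bc4 in both groups. H2bc21, an H2B gene, lay between 76.1 and 132.0 over the 6 libraries. H2ac25 (H2A) lay between 17.3 and 31.6, H3c15 (H3) between 7.71 and 35.5, and H4c12 (H4) between 5.78 and 20.7, so the ranges of these 3 overlapped.

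In the ganglia H2bc4 was again first, followed by H2bc21, H2ac25 and H2bc27. H2bc4 read 922.4, 897.1 and 509.2 in SCG, 822.1, 729.9, 664.5 and 724.2 in SCG+PSC replicates 1 to 4, and 760.4, 820.7 and 420.7 in SCG+MEF. H2bc27, an H2B gene of chromosome 11, read 307.8, 123.7 and 200.8 in SCG, 227.3, 124.7, 236.1 and 226.9 in SCG+PSC, and 220.0, 170.8 and 150.02 in SCG+MEF. The next gene of the family on that chromosome, H2ac25, lay between 148.6 and 278.4 over the 10 libraries, and H2bc21 between 186.5 and 302.1. The ranges of H2bc21, H2ac25 and H2bc27 overlapped one another, and H2bc4 stood above all 3 in every nerve library. H4c9 lay between 25.3 and 99.9 and H3c15 between 15.2 and 52.3.

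The PSC and nerve libraries thus differed in the levels of some members, although the tables were normalized apart and no test was made across them. Given as CPM, a gene's share of the library's normalized total scaled alike in every library, H2bc27 was 0 to 0.110 in the 6 PSC libraries and 3.61 to 9.07 in the 10 nerve libraries. H2ac25 was 0.468 to 0.889 against 4.22 to 8.21. H4c9 went the other way, with 5.12 to 10.4 in the PSC libraries and 0.711 to 2.94 in the nerve libraries. H2bc4 was 6.53 to 14.2 against 11.8 to 27.2, ranges that overlapped. By class, H4 members made up 244.4 to 456.4 counts per PSC library and 59.8 to 193.1 per nerve library, whereas H2A members made up 38.5 to 81.9 and 167.0 to 348.3. Most of the H4 counts in PSC libraries were those of H4c9, and most of the H2A counts in nerve libraries were those of H2ac25.

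**Figure D3:**
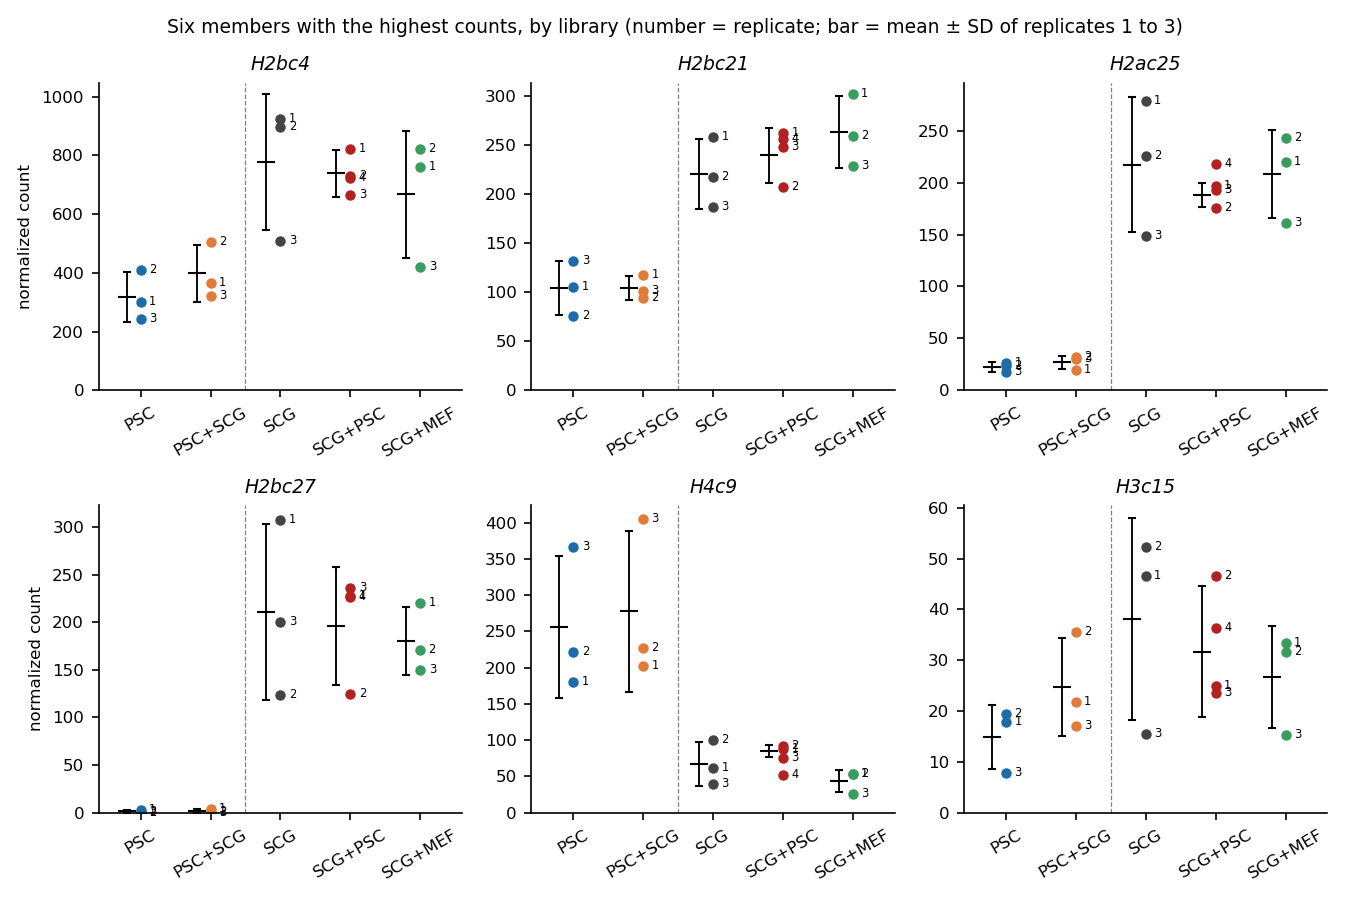
Normalized count of H2bc4, H2bc21, H2ac25, H2bc27, H4c9 and H3c15 in each library, by group, with the replicate number beside each point and the mean ± SD of replicates 1 to 3 as a bar. The dashed line separates the PSC table from the nerve table, which were normalized apart. H2bc27 lies between 0 and 3.95 in PSC libraries, and replicate 3 of SCG and of SCG+MEF is the lowest of its group for H2bc4, H4c9, H2ac25 and H3c15.

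Other genes of the cell cycle took larger shares of counts in the PSC libraries than in the nerve libraries. The summed share of the H4 members went the same way, those of the H2A and H2B members went the other way, and that of the H3 members overlapped. These sums were carried by few genes, mostly H4c9 for H4 in PSC libraries, and H2ac25 for H2A and H2bc4 for H2B in nerve libraries. They do not give the direction of the other members of a class. The 32 S phase genes of a list, among them the MCM helicase subunits and Pcna, the sliding clamp of DNA polymerase, took 0.425% to 0.513% of counts in the PSC libraries and 0.0572% to 0.160% in the nerve libraries. The 15 mitosis genes took 0.216% to 0.302% and 0.0173% to 0.111%. The members' own shares in the 2 tables overlapped, from 0.00304% to 0.00334%, and were otherwise lower in the PSC table, again side by side and without a test. Slbp, which encodes the stem-loop binding protein, read 3621 to 4105 in the PSC table and 845.6 to 1234 in the nerve table. Npat, which encodes the coactivator of histone gene transcription in S phase, read 1788 to 2511 and 1196 to 1692. Both were present in all 16 libraries.

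**Figure D4:**
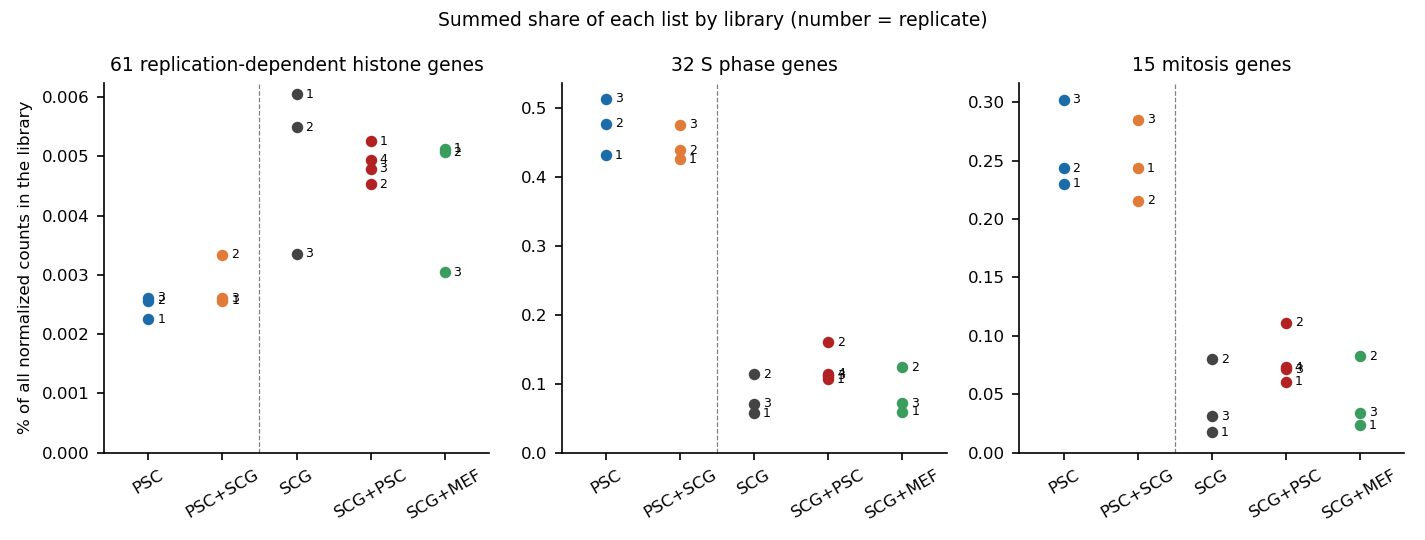
Share of all normalized counts (%) taken by the 61 members, the 32 S phase genes and the 15 mitosis genes in each library, by group, with the replicate number beside each point. Members are at most 0.00605%, and replicate 3 is the lowest member share in SCG and SCG+MEF, whereas for S phase and mitosis genes replicate 2 is the highest in each nerve group.

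Near-identical copies and overlaps limited these counts, since the authors' counting kept uniquely mapped reads alone. Of the 100-base windows of a member's exons, a median of 62.9% occurred once in the genome. In 24 members the share was under 50%, in 5 of them (H2ac19, H2ac23, H2ac24, H2bc23 and H2bc24) it was 0%, and in 14 it was 90% or more. H2bc21 and H2ac25 had 100% unique windows, H2bc27 95.4%, H2bc4 88.7% and H4c9 84.9%, whereas H3c15 had 38.4% and H4c12 35.7%, so counts of H3c15 and H4c12 are uncertain. In the later annotation 1531 of the 2146 exon bases of H2ac25 overlap Trim17 on the same strand, and the 1825 exon bases of H3c14 lie wholly in Gm20634. A count of 0 for H3c14 is therefore uncertain too. The same holds for H2ac23, H2ac24 and H2ac18, which read 0 in all 16 libraries. The first 2 had no unique 100-base window. H2ac18 had 4.11%, and 529 of its 586 exon bases overlap Gm20634.

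Many H2A and H2B members lie head to head. In 12 pairs, 1 H2A and 1 H2B gene each, the start codons stood 278 to 334 bases apart on opposite strands. H2bc4 is paired with H2ac6 at a distance of 314 bases, and H2bc21 with H2ac20 at 321 bases. The partners were far apart in counts. In the PSC table H2ac6 had 4.82 to 17.8 normalized counts and H2ac20 0 to 3.41. In the nerve table H2ac6 had 3.07 to 27.6 and H2ac20 0 to 2.03. Per kilobase, mean counts were 115.9 for H2bc4 against 3.99 for H2ac6 in the PSC table and 235.6 against 6.00 in the nerve table. H2ac6 is annotated to run 2010 bases past its stem-loop, with no poly(A) signal in its last 50 bases. Neither H2bc27 nor H2ac25 has such a partner.

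RefSeq promoters (GRCm38.p6, 250 bases before to 50 after the start) were matched by symbol for 52 of the 61 members. CCAAT, on either strand, stood in all 17 H2A, all 14 H2B and all 10 H3 promoters but in 3 of 11 H4 promoters, and in 41% of the 26973 other promoters. The octamer ATTTGCAT stood in 6 H2A and 7 H2B promoters and in no H3 or H4 promoter, against 1.92% of the others. TATAAA stood in 30 of the 52, against 15.6%. Windows of paired genes overlap, so their matches are not separate, and a match is no evidence of binding.

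The first comparison asked whether PSCs changed when cultured with ganglia. None of the 39 members tested passed the threshold, which required a Benjamini-Hochberg adjusted p of 0.05 or less in limma and a change of 0.5 or more on the log2 scale in either direction. Of the 21273 genes tested 0% passed. With the replicate number as a block 0.461% of all genes passed, 0.315% as higher, and again none of the members. No member had an unadjusted p under 0.05, and 1 did with the block, against 1.92% and 8.37% of all genes. H2bc4 averaged 398.1 ± 96.1 in PSC+SCG and 317.5 ± 85.2 in PSC (SD, n = 3), a log2 fold change of 0.33 ± 0.25 (SE, adjusted p = 0.9999). It was higher in 3 of 3 same-numbered pairs, while the groups overlapped. With the block its 95% interval was 0.03 to 0.63, and the adjusted p was 0.504.

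H4c9 and H2bc21 differed less than their spread. H4c9 averaged 278.0 ± 111 in PSC+SCG and 256.2 ± 98.2 in PSC, a log2 difference of 0.11 with an interval of −0.22 to 0.44 under the block. H2bc21 averaged 104.2 ± 12.3 and 104.3 ± 28.0, with an interval of −0.44 to 0.49. These are intervals at the 95% level, taken gene by gene. Of the 39 members, 27 had a positive log2 fold change with a median of 0.25, beside −0.01 over all genes tested. The 3 members with the largest positive values, H2bc22 (1.47), H2ac12 (1.09) and H3c7 (1.07), had 0 to 7.91 counts in every library, and the negative end, H3c1 (−1.36), H4c14 (−1.09) and H2bc3 (−0.86), had 0 to 16.9. Leaving out PSC+SCG replicate 2 brought that median to 0.06, and leaving out replicate 3 of that group brought it to 0.48. Groups did not overlap for 3 higher and 2 lower members, beside 2.68% and 2.91% of all genes. In all 3 same-numbered pairs 10 members were higher and 2 lower, beside 12.3% and 14.5% of all genes. The members' summed count was higher in each pair, at 793.1, 929.7 and 967.1 in PSC and 922.5, 1185 and 1014 in PSC+SCG.

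The nerve comparisons were made in 1 model of 9 libraries and share groups, so their values are given side by side. Replicate 3 of SCG and replicate 3 of SCG+MEF stood apart for the members. Their summed counts were 1183 and 1085, while the other libraries of these groups had 1742 to 2052 and SCG+PSC had 1814, 1567, 1639 and 1691. The linker histone H1f2 moved alike, at 754.1 and 715.6 in these 2 libraries and 976.2 to 1791 in the other 8. S phase genes did not, at 24901 and 25424 in these 2 libraries against 19414 in SCG replicate 1. Their recovered reads, 34371391 and 35179465, lay within the 32013901 to 39197230 of the other nerve libraries. Sympathetic neuron genes were the highest of each group in these libraries, at 281330 counts in SCG replicate 3 and 262556 in SCG+MEF replicate 3. SCG+PSC replicate 3 was also the highest of its group for these genes, at 243946, while its member sum of 1639 was not the lowest there. The part of neuron genes in the low sums was not tested.

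With PSCs against ganglia alone, none of the 33 members tested passed the threshold, and 3 of 23491 genes did (0.0128%). With the replicate block 1.33% of all genes passed, 1.21% as higher, and none of the members. H2bc4 averaged 738.8 ± 79.2 in SCG+PSC and 776.2 ± 232 in SCG (SD, n = 3), a log2 fold change of −0.03 with a 95% interval of −0.66 to 0.60, or −0.33 to 0.28 with the block. H2bc21 had 0.12 (block interval −0.18 to 0.43), H2bc27 −0.06 (−0.53 to 0.40) and H2ac25 −0.16 (−0.56 to 0.24). H4c9 had 0.43 (interval with the block −0.14 to 1.01). The group ranges of these 5 members overlapped.

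The largest fitted value was that of H2bc11, an H2B gene of chromosome 13. It read 0, 1.90 and 0 in SCG and 4.80, 4.05 and 9.61 in SCG+PSC replicates 1 to 3, which did not overlap, and 2.02 in SCG+PSC replicate 4. Its log2 fold change was 2.25 ± 0.60 (SE) with a pseudocount of 1, 2.89 with 0.5 and 0.70 with 8, and the adjusted p was 1, or 0.157 with the block. H2ac7 (1.75) and H2bc9 (1.48) followed, with 0 to 5.34 and 1.02 to 20.1 counts in these 6 libraries, and at the other end stood H4c3 (−1.55), H3c3 (−0.75) and H2ac10 (−0.47), none above 8.56. Before adjustment 2 of the 33 members had p below 0.05, and 3 with the block, beside 4.01% and 10.7% of all genes. Groups did not overlap for 3 higher members and no lower one, beside 4.24% and 3.43% of all genes. In all 3 same-numbered pairs 5 members were higher and 3 lower, beside 17.5% and 15.7% of all genes. The median log2 fold change of the 33 was 0.06 beside 0.00 over all genes, and it was −0.32 without SCG replicate 3, −0.21 without replicate 3 of every nerve group and 0.26 without SCG replicate 2, so its sign rested on single libraries.

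With NIH 3T3 cells against ganglia alone, none of the 33 members passed the threshold, beside 0.0128% of all genes, or 0.162% with the block. Members tended to the negative side, with 9 of 33 positive and a median of −0.40 beside 0.02 over all genes. This median was −0.90 without SCG replicate 3, 0.14 without SCG+MEF replicate 3 and −0.20 without replicate 3 of every nerve group, so it rested on those libraries. In all 3 pairs 3 members were higher and 6 lower, beside 15.2% and 13.3% of all genes. H2bc4 averaged 667.3 ± 216 in SCG+MEF, with a log2 difference from SCG of −0.23 and a block interval of −0.53 to 0.08. H4c9 read 52.7, 52.6 and 25.3 in SCG+MEF and 61.8, 99.9 and 38.9 in SCG, lower in each of the 3 pairs, with a log2 difference of −0.58 ± 0.39 (SE, adjusted p = 1, or 0.656 with the block). H2bc11 (1.42) did not overlap, at 2.03, 2.63 and 4.05, and no other member was without overlap, beside 2.99% of all genes higher and 3.64% lower. Before adjustment 1 member had p below 0.05 without the block and 1 with it, beside 3% and 7.54% of all genes. H4c14 (0.83) and H2bc8 (0.47) came next, and H2ac10 (−1.20), H4c3 (−1.12) and H3c6 (−1.10) were the most negative, the last 3 with at most 8.56 counts.

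With PSCs against NIH 3T3 cells, none of the 33 members passed the threshold, beside 0% of all genes, or 0.788% with the block, 0.66% as higher. Before adjustment 1 member had p below 0.05, and 2 with the block, beside 3.21% and 11.7% of all genes. H4c9 came nearest. It read 88.3, 91.2 and 74.8 in SCG+PSC replicates 1 to 3, above every SCG+MEF library, and averaged 84.8 ± 8.77 against 43.5 ± 15.8 (SD, n = 3). The log2 difference was 1.01 ± 0.39 (SE, adjusted p = 1), with an interval of 0.44 to 1.59 and an adjusted p of 0.110 with the block, and 0.0939 in edgeR with the block. In SCG+PSC replicate 4, which was outside the model, H4c9 read 51.4 and so fell within the SCG+MEF range. H2bc4 had 0.20 (block interval −0.10 to 0.50), H2bc21 −0.13, H2bc27 0.08, H2ac25 −0.12 and H3c15 0.25.

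Of the 33 members, 27 were positive in that comparison with a median of 0.53, beside −0.01 over all genes, and the median was 0.21 without SCG+MEF replicate 3 and 0.20 without replicate 3 of every group. Groups did not overlap for 4 higher and 0 lower members, beside 3.9% and 3.47% of all genes, and in all 3 pairs 6 were higher and 0 lower, beside 15.6% and 18.3%. Away from H4c9 the extremes were low in count. H2bc9 (1.73), H2ac15 (1.51) and H2ac7 (1.40) were the highest, and H3c7 (−0.80), H4c3 (−0.43) and H2bc8 (−0.17) the lowest, none of them above 20.1 counts in any of these libraries.

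**Figure D5:**
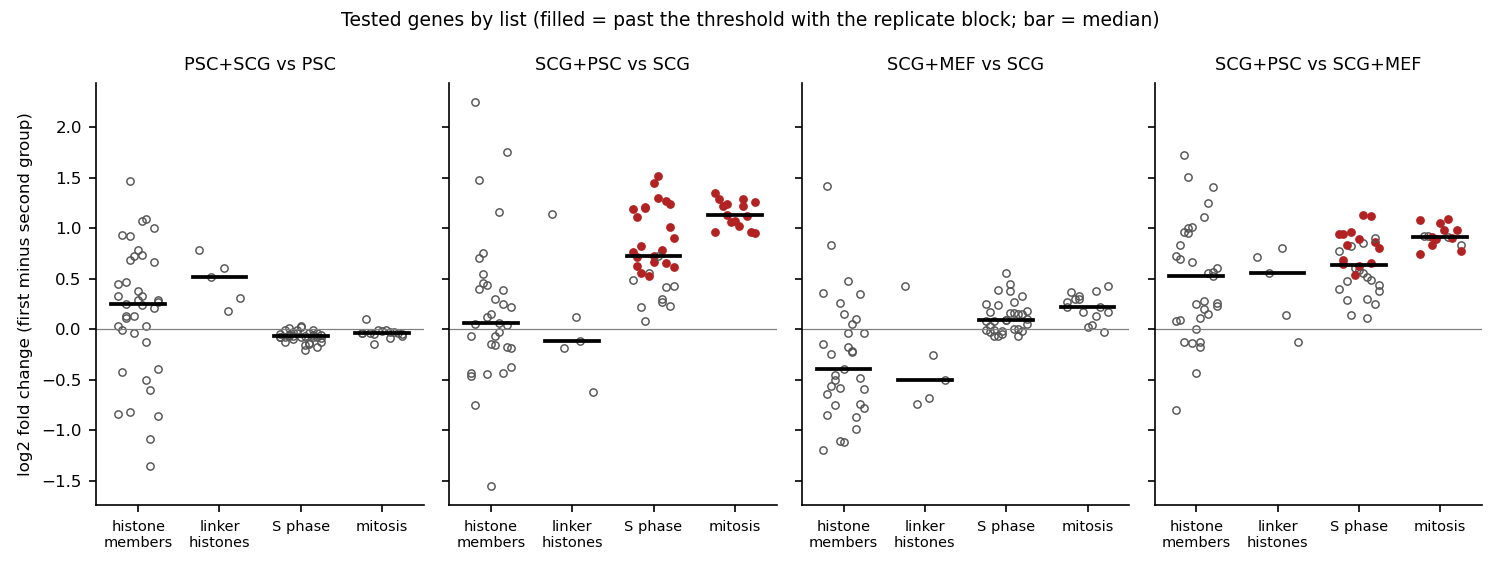
Log2 fold change of the tested members (39 in PSCs, 33 in ganglia), 5 linker histones, 32 S phase genes and 15 mitosis genes in the 4 comparisons. Points are genes, bars are medians, and filled points passed the threshold with the replicate block. In SCG+PSC against SCG, 22 S phase and 15 mitosis genes are filled and no member is.

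Genes of S phase and mitosis passed the threshold in the ganglia once same-numbered libraries were compared. Without the block none of the list genes passed the threshold in any comparison. With it, 22 of 32 S phase genes and 15 of 15 mitosis genes rose in SCG+PSC against SCG, with median log2 fold changes of 0.72 and 1.13, and 14 of 32 and 11 of 15 rose against SCG+MEF, with medians of 0.64 and 0.92. None passed in SCG+MEF against SCG or in PSC+SCG against PSC, where the S phase median was −0.07. Mki67, a marker of cycling cells, rose by 1.34 on the log2 scale against SCG (adjusted p = 0.00854) and by 1.08 against SCG+MEF (adjusted p = 0.0321), both with the block. Pcna had 0.48 against SCG (adjusted p = 0.0179), just under the fold required. In the same fits none of the 33 members passed, and this difference between the lists was not tested.

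The chaperones that hand new histones to DNA followed the S phase genes in part. Asf1b, Chaf1a and Chaf1b, named after their values were seen, rose with the block by 0.90, 0.86 and 0.82 in SCG+PSC against SCG and by 0.79, 0.63 and 0.81 against SCG+MEF, and the other 6 of 9 chaperones did not pass. None of the 16 genes of histone transcription and RNA processing, which include Slbp, Npat and the U7 protein gene Lsm11, passed in any comparison with or without the block. Slbp had log2 differences of −0.03 in PSCs, 0.15 and 0.07 against SCG and 0.08 between the cocultures, and Npat had −0.07, 0.11, 0.17 and −0.06. The 11 replication-independent variants, such as H3f3a, H3f3b and H2az1, whose messages are polyadenylated, did not pass either. They took 0.121% to 0.164% of counts in all libraries. H3f3b alone, named after its values were seen, with 13528 to 18537 counts per library, exceeded all 61 members together.

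The linker histones of the histone clusters were likewise carried by 1 gene. H1f2 made up 498.0 to 711.5 counts per PSC library and 715.6 to 1791 per nerve library, and H1f1, H1f3, H1f4 and H1f5 lay between 0 and 21.9 in every library. None of the 5 passed the threshold in any comparison, with or without the block.

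Markers of other cells in the explants were compared over the same libraries. Sympathetic neuron genes summed to 119606 to 281330 counts in SCG, 137747 to 243946 in SCG+PSC and 174185 to 262556 in SCG+MEF, ranges that overlapped, and none of the 10 passed. With the block the collagen-binding proteoglycan gene Lum rose in SCG+PSC (0.65) and in SCG+MEF (1.29) against SCG, Dcn rose in SCG+MEF (0.74), and the glial gene Fabp7 fell by 0.50 in SCG+MEF. Between the cocultures Lum was lower (−0.64) and Fabp7 higher (0.56) in SCG+PSC. These genes were named after their values were seen. None of the 6 endothelial genes passed, although their median was 0.87 in SCG+PSC against SCG and all 6 had p below 0.05 before adjustment, 5 of them on the higher side. The sixth, Emcn, had a log2 difference of −0.48 and the highest counts of the list, and the summed endothelial counts of the groups overlapped (3464 to 4383 in SCG and 4087 to 4334 in SCG+PSC). None of the 8 macrophage genes passed. The part of these shifts in the member counts was not tested.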

How the data were processed

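RNA-seq was analysed from 16 libraries of mPSC1 cells and SCG explants. The authors aligned reads with STAR 2.7.10b to GRCm39, counted uniquely mapped reads per gene on GENCODE M33 and divided them by DESeq2 1.38.3 size factors (R 4.2.2), for PSC and nerve libraries apart, so the deposited values are a signal of normalized counts. Replicates are separate libraries. The study's methods name dated experimental batches but tie no library to one, and the labels do not say which libraries came from separate cultures, so p-values measure the spread between libraries, which may be in part technical. Dividing by a library's step gave whole reads (within 0.1) in 100% of values of 14 libraries.

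Log2(normalized count + 1) was fitted with limma 3.58.1 (trend, R 4.3.3) for genes summing to at least 10, with Benjamini-Hochberg adjustment over all genes. The nerve model held replicates 1 to 3. The replicate number served as a block in an alternative. Deviations from group means of same-numbered libraries correlated at 0.25 to 0.70 in every pair, so the numbers pair the samples on the evidence of the data alone. Other alternatives were edgeR 4.0.16 and DESeq2 1.42.0 on recovered nerve reads, pseudocounts, filters, quantile normalization and left-out libraries. Tests were checked on simulated data without a replicate effect, in which only genes with means well above 10 were changed. Of the members, 53 in the PSC table and 50 in the nerve table had a mean under 10. The check therefore does not show what could be detected for them.

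In each table the 6 members with the highest mean were named, in each comparison the 3 tested members with the highest and the 3 with the lowest log2 fold change and any past the threshold, head-to-head partners, up to 5 genes past the threshold of each related list, and Slbp, Npat, Pcna and Mki67. Members and lists were chosen with earlier results of these data known.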

Additional observations from a re-analysis of the deposited data

Results flagged for a closer look

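In SCG+PSC, the only group of 4 libraries, the spread of each named gene was examined, and chance marks about 1 such group in 20. H2bc27 was low in 1 library, replicate 2, with 124.7 normalized counts while the other 3 had 226.9 to 236.1. SCG replicate 2 was the lowest of its group as well, at 123.7. H2bc8 was high in 1 library, replicate 3, with 11.8 while the other 3 had 6.71 to 7.10.

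SCG+PSC replicate 4 was outside the 9-library model. For 4 genes it lay above every SCG library, with 1070 normalized counts of Slbp, 1516 of Npat, 3259 of Pcna and 5141 of Mki67. The highest SCG libraries had 1047, 1506, 2906 and 4867. Among the members, H4c9 read 51.4 in this library, within the SCG range of 38.9 to 99.9, and the sum over all members was 1691, within the SCG range of 1183 to 2052.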

How the results depend on the processing

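No member passed the threshold under any alternative, in limma, edgeR or DESeq2. The replicate block changed no member's call, but over all genes it moved those past the threshold (higher and lower) from 0 and 0 to 67 and 31 in PSCs, from 3 and 0 to 284 and 29 in SCG+PSC against SCG, from 3 and 0 to 27 and 11 in SCG+MEF against SCG, and from 0 and 0 to 155 and 30 between the cocultures. DESeq2 without a block gave 50 and 6, 19 and 3, and 14 and 4 in the nerve comparisons, and it gave no adjusted p for 17, 18 and 26 of the 33 members. Counts this low limit what could be seen, and PSC counts had no test on reads.

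Many directions were not stable, and not only those of values close to 0. H4c14 in PSC+SCG against PSC, at −1.09 in the main fit, also changed sign when libraries were left out. H4c12 was 0.080 in PSCs after quantile normalization, and with all 4 SCG+PSC libraries H2bc27 was 0.0028 against SCG and H4c3 0.056 against SCG+MEF. Leaving out libraries reversed 27 of 64 named values, and the cause was not tested. This includes leaving out replicate 3 of every nerve group, chosen after seeing the data. In PSC+SCG against PSC the log2 fold change ranged from −0.18 to 0.21 for H2bc21, −0.48 to 0.34 for H4c12, −1.71 to 0.011 for H4c14, −0.19 to 0.41 for H4c9, −0.23 to 0.10 for Mki67, −0.20 to 0.047 for Npat, −0.18 to 0.012 for Pcna and −0.081 to 0.0094 for Slbp. In SCG+PSC against SCG it ranged from −1.53 to 0.064 for H2ac10, −0.43 to 0.040 for H2ac25, −0.021 to 0.24 for H2bc21, −0.40 to 0.26 for H2bc27, −0.31 to 0.12 for H2bc4 and −0.69 to 0.16 for H3c15, and the median of the members from −0.32 to 0.26. In SCG+MEF against SCG it ranged from −0.29 to 0.16 for H2ac25, −0.48 to 0.17 for H2bc27, −0.51 to 0.075 for H2bc4, −0.26 to 0.88 for Mki67, −0.11 to 0.29 for Pcna and −0.016 to 0.20 for Slbp, and the median of the members from −0.90 to 0.14. In SCG+PSC against SCG+MEF it ranged from −0.20 to 0.38 for H2bc27, −0.10 to 0.38 for H2bc4, −0.57 to 0.10 for H2bc8, −0.10 to 0.44 for H3c15, −1.08 to 0.52 for H4c3, −0.14 to 0.028 for Npat and −0.051 to 0.18 for Slbp.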
